A study of Mus musculus with 18 samples.

Results

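The comparison described here is the knock-down of *Atrx* in K7M2 tumors grown in Balb/c mice. It holds 8 of the 18 sequenced tumors, 4 from ATRXKD cells (mice 56, 58, 59 and 60) and 4 from ATRXCT cells (mice 41, 43, 44 and 45), chosen by their labels. Of the 20878 genes measured, the 14701 that averaged 0.1 FPKM or more over these 8 tumors were compared, in both directions and with attention to genes other than those of mast cells. FPKM is a fragment count scaled to the length of the transcript and the size of the library, and the deposited values are log2 (FPKM + 1). A log2 fold change below is the ATRXKD mean minus the ATRXCT mean on this scale, which understates the change of genes with a low FPKM.

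ATRX is a chromatin remodeler of the SWI/SNF type that works with DAXX to place the histone variant H3.3 in repeats, telomeres, and other silenced DNA. Its loss is frequent in sarcomas with complex genomes. RNA of a whole tumor mixes the grafted sarcoma cells with vessels, infiltrating leukocytes, fibroblasts, and the muscle, fat, or skin that the tumor touches. For any gene in such RNA, fewer cells of a type and less RNA per cell cannot be told apart.

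K7M2 is a mouse osteosarcoma line of Balb/c origin, so the Balb/c host has a complete immune system and shares the graft's strain. The cells had been transduced by lentivirus with an shRNA against *Atrx* (ATRXKD) or a control shRNA (ATRXCT), and 500000 cells were injected in female mice of 6 to 8 weeks. Cages of 5 mice were assigned to one kind of cells and the labels give no cage, so cage and knock-down cannot be told apart. Separate transductions are not named in the sources used here, and only grafts that grew could be sequenced. Each tumor came from another mouse, so p-values measure the spread between tumors and not between transductions. The same 2 kinds of cells were grafted in NSG mice, which lack T, B, and NK cells, and these 10 other tumors (5 of each kind) serve below as a second set of measurements.

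*Atrx* (chrX:105797615-105929372 of mm10, minus strand, 35 exons) was measured first, because it is the target of the shRNA. Its level was 13.4, 26.02, 10.3 and 20.7 FPKM in the ATRXCT tumors and 21.5, 7.88, 9.11 and 17.3 FPKM in the ATRXKD tumors, in the order of mice given above, which holds for every such list below. The groups overlapped (log2 fold change −0.34 (SE 0.36, limma adjusted p = 0.999), exact permutation test, two-sided, p = 0.486, with 0.0286 as the smallest p that 4 against 4 tumors allow), and the ATRXKD tumor of mouse 56 was higher than 3 of the 4 ATRXCT tumors. In the libraries of mice 43, 45, 56 and 60, long transcripts were measured relatively high. *Atrx* was at 26.02 and 20.7 FPKM (ATRXCT) and 21.5 and 17.3 FPKM (ATRXKD) in these, with overlap. In the other libraries it was at 13.4 and 10.3 FPKM (ATRXCT) and 7.88 and 9.11 FPKM (ATRXKD), without overlap. The part of transcript length in this was not tested. Over all 8 libraries, the level of this transcript thus does not check the labels.

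The osteoblast origin was only in part visible. Of 23 osteoblast genes, 14 averaged 0.1 FPKM or more. The osteoblast regulator *Runx2* was at 3.54 to 11.1 FPKM over the 8 tumors. The matrix genes *Col1a1* and *Spp1* were at 104 to 499 FPKM and 180.3 to 604 FPKM. *Alpl* was at 0.218 to 0.662 FPKM, and the regulator *Sp7* and the mature bone genes *Ibsp* and *Bglap* stayed at or under 0.339 FPKM. *Phex*, of the same list, was well above these low genes and is given below. Genes with values in this paragraph were chosen after those values were seen. T cell and NK cell genes were present, with *Cd3e* at 2.54 to 8.53 FPKM and *Ncr1* at 2.09 to 14.1 FPKM.

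Some libraries stood apart. The mean log2 (FPKM + 1) of 14 keratinocyte genes was 2.53 in the ATRXCT tumor of mouse 45 and 0.990 in the ATRXKD tumor of mouse 60, whereas the remaining 6 tumors had 0.262 to 0.338. Long transcripts were measured relatively high in the ATRXCT tumors of mice 43 and 45 and in the ATRXKD tumors of mice 56 and 60, which makes 2 libraries of each group. The depth, as the spacing of low FPKM values gave it, was 19950000 to 24500000 fragments in ATRXCT tumors and 18400000 to 22700000 in ATRXKD tumors. These depths are approximate, since most low values did not fall near whole fragments and a fragment length of 160 nt was assumed.

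At 2-fold or more and a limma p under 0.05 after Benjamini-Hochberg adjustment, 1 gene fell in ATRXKD tumors (0.0068% of the genes tested), and 0 rose (0%). The gene that fell was the mast cell protease gene *Mcpt2*, at 2.37, 2.69, 2.07 and 1.39 against 0.106, 0, 0.1196 and 0.172 FPKM in ATRXCT and ATRXKD tumors, a log2 fold change of −1.49 (SE 0.14, limma adjusted p = 0.0226). The call of *Mcpt2* was lost when the tumor of mouse 41, 44, 56, 58, 59 or 60 was left out, with a limma adjusted p of up to 0.153. Without the adjustment, 356 genes were lower (2.42%) and 253 higher (1.72%) at p under 0.05 in limma, 4.14% in all. Of these, 24 lower genes and 24 higher genes (0.163% each way, 0.327% in all) also differed 2-fold or more. The ranges of the groups did not overlap for 283 lower (1.93%) and 184 higher genes (1.25%), 3.18% in all. Without any difference, a share of about 0.0286 of genes would have groups that do not overlap, from 70 arrangements of 4 against 4 tumors. A share of about 0.05 would have an unadjusted p under 0.05. Both shares seen here are near or below these, so a lack of overlap in 1 gene is a description. The median log2 fold change of all genes was 0.00, with 49.2% of genes higher and 50.8% lower.

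**Figure D1:**
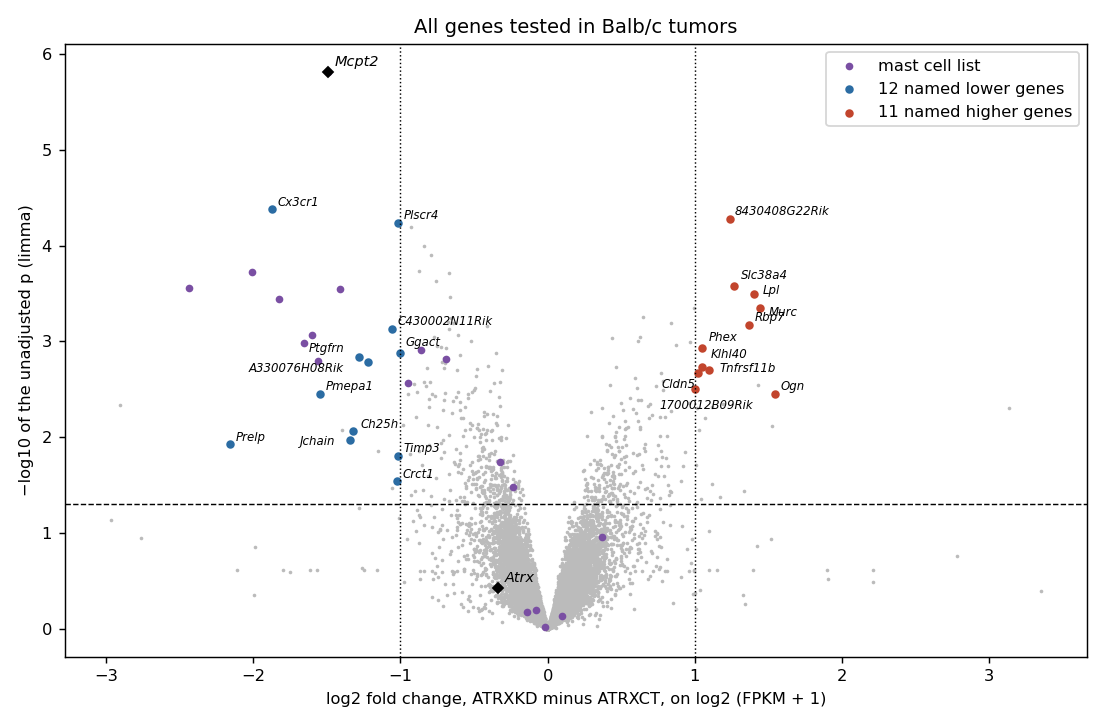
Each point is 1 of 14701 genes, with its log2 fold change (ATRXKD minus ATRXCT) on the horizontal axis and −log10 of its unadjusted p in limma on the vertical axis. Dotted lines mark a fold change of 2 and the dashed line the unadjusted threshold. Of 18 mast cell genes (purple), 16 lie left of 0, with *Mcpt2* at the top, and 2 lie right of it. *Atrx* is near the middle at −0.34 on the log2 scale.

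Of the 24 lower genes at unadjusted p under 0.05 and 2-fold, 8 were mast cell genes. Outside the mast cell list, 12 lower and 11 higher genes passed this looser rule with groups that did not overlap, and they are described next as values, since none of them passed the adjusted p. They were picked on these same 8 tumors, so their Balb/c values are a description.

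The lower genes are given by what they are known to do. *Prelp* (chr1:133910304-133921401, minus strand) codes a small leucine-rich proteoglycan that anchors basement membranes to collagen. It was measured at 63.3, 75.2, 45.8 and 54.8 FPKM in the ATRXCT tumors and 3.06, 39.9, 31.02 and 5.11 FPKM in the ATRXKD tumors. All 4 ATRXKD tumors were below the ATRXCT tumors, and those of mice 56 and 60 were far below those of mice 58 and 59. The log2 fold change was −2.16 (SE 0.69, limma adjusted p = 0.873). It was −3.71 between the libraries rich in long transcripts and −0.60 between the other libraries.

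*Pmepa1* (chr2:173224465-173276533), a TGF-beta target that dampens SMAD signaling, was at 10.2, 11.2, 7.28 and 7.096 FPKM in the ATRXCT tumors and 1.87, 7.03, 2.01 and 0.816 FPKM in the ATRXKD tumors. The ATRXKD tumor of mouse 58 came just under the lowest ATRXCT tumor and the others were well below, with a log2 fold change of −1.55 (SE 0.40, limma adjusted p = 0.565). *Timp3* (chr10:86300412-86349505) codes a metalloproteinase inhibitor that stays bound to the matrix. It was the most abundant of the 12 lower genes, at 72.6, 80.1, 123 and 83.8 FPKM in the ATRXCT tumors and 30.4, 72.1, 63.3 and 24.5 FPKM in the ATRXKD tumors. Its log2 fold change was −1.02 (SE 0.34, limma adjusted p = 0.958), and the ATRXKD tumor of mouse 58 was just under the ATRXCT range.

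*Cx3cr1* (chr9:120048683-120068296, minus strand) codes the receptor of fractalkine on monocytes, macrophages, and some NK and T cells. It was at 15.2, 26.9, 30 and 19.2 FPKM in the ATRXCT tumors and 7.49, 4.09, 3.87 and 6.48 FPKM in the ATRXKD tumors. Every ATRXKD tumor was well below every ATRXCT tumor, and the log2 fold change was −1.87 (SE 0.26, limma adjusted p = 0.189). Other genes of these cells gave smaller values. Of 20 macrophage and monocyte genes, 0 were at p under 0.05 in either direction, and their median log2 fold change was −0.11.

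*Ch25h* (chr19:34473783-34475135), an intronless gene for the enzyme that makes 25-hydroxycholesterol, was at 47.6, 32.4, 91.8 and 23.7 FPKM in the ATRXCT tumors and 16.1, 22, 21.3 and 9.82 FPKM in the ATRXKD tumors, a log2 fold change of −1.32 (SE 0.40, limma adjusted p = 0.753). *Jchain* (chr5:88519809-88527897) codes the chain that joins the IgA and IgM polymers of plasma cells. It was at 2.65, 13.8, 4.01 and 5.29 FPKM in the ATRXCT tumors and 1.94, 2.27, 0.478 and 1.91 FPKM in the ATRXKD tumors. The ATRXCT tumor of mouse 43 stood above the rest of its group and the ATRXKD tumor of mouse 59 below the rest of its own, and the log2 fold change was −1.34 (SE 0.42, limma adjusted p = 0.81). Among the 11 B and plasma cell genes tested, *Jchain* was the only one at p under 0.05, and the median of the list was −0.10.

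*Plscr4* (chr9:92457378-92492516), of the phospholipid scramblase family, had the tightest groups of the 12 genes, at 5.903, 5.304, 5.57 and 7.76 FPKM in the ATRXCT tumors and 2.32, 2.897, 2.48 and 2.33 FPKM in the ATRXKD tumors. Its log2 fold change was −1.02 (SE 0.15, limma adjusted p = 0.189). *Ptgfrn* (chr3:101040236-101110166), an immunoglobulin-like partner of tetraspanins, was at 5.21, 8.84, 3.82 and 9.89 FPKM in the ATRXCT tumors and 1.36, 3.2, 1.79 and 2.35 FPKM in the ATRXKD tumors, a log2 fold change of −1.28 (SE 0.29, limma adjusted p = 0.457). *Ggact* (chr14:122890860-122913165), an enzyme that releases glutamate from gamma-glutamylamines, was at 35.5, 21.4, 46.4 and 32.8 FPKM in the ATRXCT tumors and 18.01, 16.6, 16.9 and 12.6 FPKM in the ATRXKD tumors. Its neighbor *Tmtc4*, which is not one of the 12 lower genes, was at 11.5, 8.95, 10.1 and 13.05 FPKM in the ATRXCT tumors and 8.804, 4.76, 4.51 and 4.05 FPKM in the ATRXKD tumors. Both had lower values in every ATRXKD tumor than in any ATRXCT tumor, and the log2 fold change of *Tmtc4* was −0.90 (SE 0.22, limma adjusted p = 0.557).

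The remaining 3 lower genes had low levels. *Crct1*, a gene of the epidermal differentiation complex, was at 6.39, 1.49, 3.55 and 1.86 against 0, 1.33, 1.48 and 1.44 FPKM in the ATRXCT and ATRXKD tumors, and the ATRXKD tumor of mouse 56 was listed at 0. In the tumors of mice 45 and 60, where keratinocyte genes were high, *Crct1* was inside the range of its group. *A330076H08Rik* was at 0.701, 0.822, 2.62 and 3.05 against 0, 0.264, 0.125 and 0.0799 FPKM, and *C430002N11Rik* was at 1.75, 1.68, 2.901 and 1.89 against 0.176, 1.24, 0.305 and 0.302 FPKM. Among ATRXKD tumors the one of mouse 58 had the highest level of each.

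The 11 higher genes were led by *Ogn* (chr13:49608071-49624500, plus strand), which codes osteoglycin, another small leucine-rich proteoglycan of connective tissue and bone. It was at 32.7, 28.6, 28.3 and 17.9 FPKM in the ATRXCT tumors and 187, 74.8, 62.1 and 43.2 FPKM in the ATRXKD tumors. The ATRXKD tumor of mouse 56 was the highest by far, yet the lowest ATRXKD tumor was still above all ATRXCT tumors, with a log2 fold change of 1.54 (SE 0.40, limma adjusted p = 0.565). *Ogn* and *Prelp*, which belong to the same proteoglycan family, thus had the largest difference in each direction outside the mast cell list, among genes whose groups did not overlap.

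*Murc* (chr4:48663514-48673492, plus strand, also named *Cavin4*) codes the muscle member of the cavins that coat caveolae, and it was at 0.787, 0.298, 2.35 and 0.574 FPKM in the ATRXCT tumors and 4.86, 4.67, 3.77 and 3.201 FPKM in the ATRXKD tumors. *Klhl40* (chr9:121777607-121783819), a kelch protein that stabilizes thin filament proteins, was at 1.06, 0.565, 1.12 and 0.549 FPKM in the ATRXCT tumors and 1.58, 4.81, 3.05 and 2.18 FPKM in the ATRXKD tumors. Their log2 fold changes were 1.44 (SE 0.27, limma adjusted p = 0.351) and 1.05 (SE 0.24, limma adjusted p = 0.474). The 17 skeletal muscle genes tested had the opposite sign, all lower in ATRXKD tumors with a median of −0.54.

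*Lpl* (chr8:68880555-68906932), lipoprotein lipase, which frees fatty acids from lipoproteins on the capillary wall, was at 6.297, 14.5, 7.34 and 6.58 FPKM in the ATRXCT tumors and 27.7, 21.9, 18.2 and 26.5 FPKM in the ATRXKD tumors, a log2 fold change of 1.40 (SE 0.25, limma adjusted p = 0.311). *Gpihbp1*, the protein that carries lipoprotein lipase to that wall, had means of 19.7 and 33.7 FPKM in ATRXCT and ATRXKD tumors, without overlap (log2 fold change 0.73, adjusted p = 0.562 in limma, a gene chosen after its values were seen). *Rbp7* (chr4:149449701-149454968), a cellular retinol-binding protein, was at 1.37, 1.78, 0.553 and 2.42 FPKM in the ATRXCT tumors and 7.13, 5.18, 6.19 and 3.29 FPKM in the ATRXKD tumors. *Cldn5* (chr16:18776847-18778262), a claudin of endothelial tight junctions, was at 9.84, 11.8, 10.6 and 14.5 FPKM in the ATRXCT tumors and 35.8, 27.4, 14.99 and 24.3 FPKM in the ATRXKD tumors. The ATRXKD tumors of mice 60 and 59 were the closest to the ATRXCT range for *Rbp7* and *Cldn5*, respectively, and the log2 fold changes were 1.37 (SE 0.27, limma adjusted p = 0.388) and 1.02 (SE 0.24, limma adjusted p = 0.492).

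*Phex* (chrX:157162075-157415286), an osteoblast and osteocyte peptidase whose loss causes phosphate wasting, was at 18.8, 17.5, 37.5 and 23.7 FPKM in the ATRXCT tumors and 54.2, 40.97, 48.5 and 54.5 FPKM in the ATRXKD tumors. *Tnfrsf11b* (chr15:54250619-54278484) codes osteoprotegerin, the decoy receptor that blocks RANKL and so the formation of osteoclasts. It was at 0.716, 0.864, 1.41 and 0.206 FPKM in the ATRXCT tumors and 3.303, 2.31, 4.204 and 1.61 FPKM in the ATRXKD tumors. The log2 fold changes were 1.05 (SE 0.23, limma adjusted p = 0.413) and 1.09 (SE 0.26, limma adjusted p = 0.474). Of 14 osteoblast genes tested, these 2 were the only ones at p under 0.05 (median 0.00), and of 10 osteoclast genes 0 were (median −0.05).

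The amino acid transporter gene *Slc38a4* (chr15:96994823-97055956) was at 4.78, 9.16, 7.54 and 8.39 FPKM in the ATRXCT tumors and 14.7, 24.05, 22.04 and 16.2 FPKM in the ATRXKD tumors, a log2 fold change of 1.26 (SE 0.22, limma adjusted p = 0.295). The RIKEN gene *8430408G22Rik* had the smallest spread within ATRXKD tumors, at 1.95, 4.03, 3.45 and 3.02 FPKM in the ATRXCT tumors and 8.53, 8.63, 7.98 and 8.95 FPKM in the ATRXKD tumors, a log2 fold change of 1.24 (SE 0.18, limma adjusted p = 0.189). The RIKEN gene *1700012B09Rik* was at 4.99, 7.48, 7.94 and 4.32 against 20.3, 10.9, 9.72 and 13.4 FPKM in the ATRXCT and ATRXKD tumors.

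**Figure D2:**
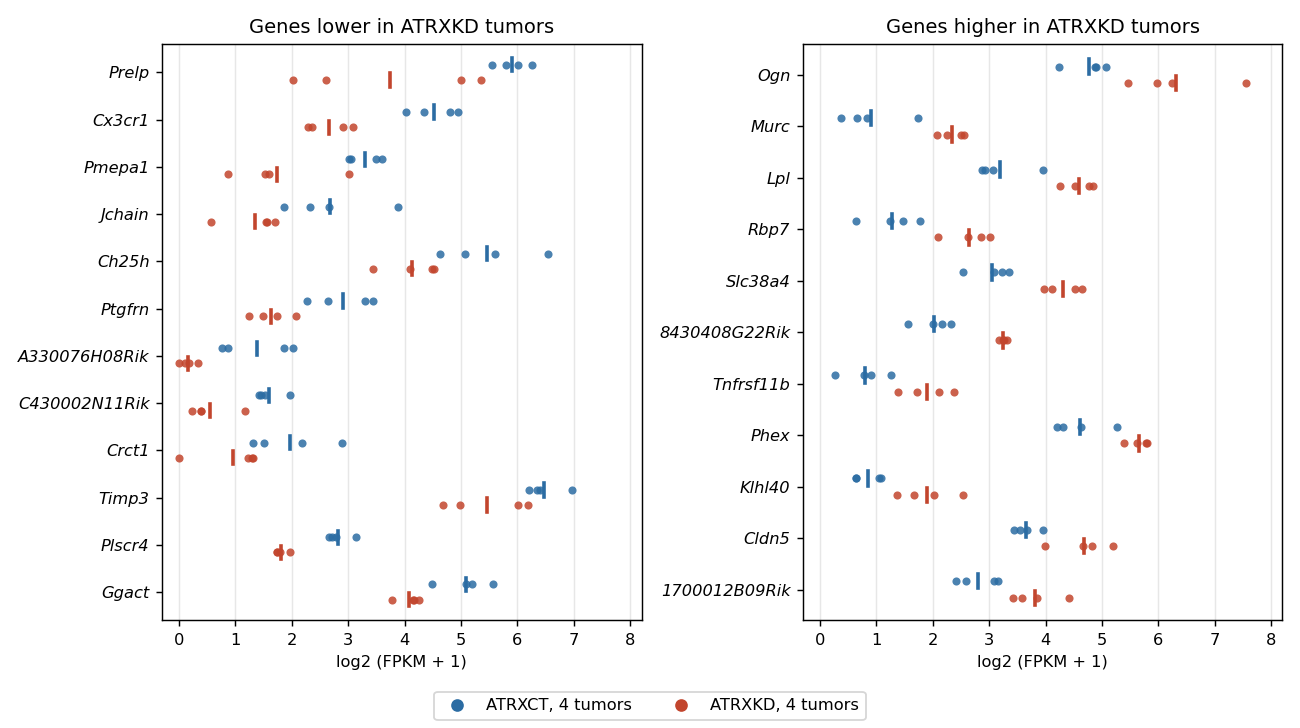
Each dot is the log2 (FPKM + 1) of 1 tumor for the 12 lower and 11 higher genes, with ATRXCT tumors in blue, ATRXKD tumors in red, and a bar at the group mean (4 tumors each). For *Prelp* and *Timp3* the ATRXKD tumors form a high and a low pair, whereas those of *Plscr4* and *8430408G22Rik* lie close together.

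A fit that weights each library by its quality called 15 genes (0.102%), 11 lower (0.0748%) and 4 higher (0.0272%). Of these, 8 were mast cell genes. The other lower ones were *Cx3cr1* (limma adjusted p = 0.0372), *Tmtc4*, and *Pcbp3*, which codes a poly(C)-binding protein and was at 3.18, 3.02, 2.23 and 2.27 against 1.11, 0.677, 0.646 and 2.06 FPKM. In that fit, *Murc*, *Slc38a4*, *Rbp7*, and *8430408G22Rik* rose (adjusted p = 0.0401 in limma for each). A fit of all 4 groups called 9 genes (0.0612%), 6 lower and 3 higher, with *Plscr4* among them (limma adjusted p = 0.00488). In the fit of the 8 tumors without weights, the lowest adjusted p among the 23 genes was 0.189. Among the lower genes, *Scarna8*, a small RNA of 118 nt, was at 14.1, 0, 12.4 and 14.4 against 0, 0, 0 and 0 FPKM, and among the higher ones *Mir8094*, of 117 nt, was at 0, 0, 0 and 0 against 19.96, 21.03, 12.03 and 0 FPKM. In NSG tumors *Mir8094* went the other way, at 12.9 to 51.7 FPKM in ATRXCT tumors and 0 to 29.8 FPKM in ATRXKD tumors, and *Scarna8* was listed at 0 in all of them. The test of the difference between hosts for *Mir8094* gave a limma adjusted p = 0.243. These transcripts are shorter than the fragment length of 160 nt that was assumed here and not measured. A level of 0 there means only that the gene is listed at 0.

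The sequence before the start of the transcript is shown for the first 2 of each direction that RefSeq's promoter table (GRCm38.p6, the same build as mm10) holds, of 19 of the 23 genes found in it. Each line gives 250 bases up to the start, read on the strand of the gene. Capitals mark TATAAA, on either strand. GGGCGG and TGANTCA, searched on both strands as well, were absent from these 4 windows.

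Prelp: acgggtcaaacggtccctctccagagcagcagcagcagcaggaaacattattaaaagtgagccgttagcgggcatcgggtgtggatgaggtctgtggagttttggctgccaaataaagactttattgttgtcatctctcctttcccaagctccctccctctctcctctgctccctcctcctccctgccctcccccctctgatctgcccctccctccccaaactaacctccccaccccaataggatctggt
Cx3cr1: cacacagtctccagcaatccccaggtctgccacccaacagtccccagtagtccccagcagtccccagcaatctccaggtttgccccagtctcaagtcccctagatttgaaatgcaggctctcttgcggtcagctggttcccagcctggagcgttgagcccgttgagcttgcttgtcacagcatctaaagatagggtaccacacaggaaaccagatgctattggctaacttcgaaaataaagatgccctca
Ogn: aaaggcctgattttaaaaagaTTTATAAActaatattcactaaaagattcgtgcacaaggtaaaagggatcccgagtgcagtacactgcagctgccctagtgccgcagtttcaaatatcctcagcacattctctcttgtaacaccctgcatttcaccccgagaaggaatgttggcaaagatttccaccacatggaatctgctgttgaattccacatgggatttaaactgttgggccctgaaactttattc
Murc: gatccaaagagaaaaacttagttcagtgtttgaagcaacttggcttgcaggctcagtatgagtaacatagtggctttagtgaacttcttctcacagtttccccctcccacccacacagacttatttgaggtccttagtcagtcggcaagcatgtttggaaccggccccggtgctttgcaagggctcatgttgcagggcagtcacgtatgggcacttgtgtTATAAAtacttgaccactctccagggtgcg

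These windows lie at chr1:133921402-133921651, minus strand for *Prelp*, chr9:120068297-120068546, minus strand for *Cx3cr1*, chr13:49607765-49608014, plus strand for *Ogn*, and chr4:48663264-48663513, plus strand for *Murc*. The table's start of *Ogn* lies upstream of the one in the deposited annotation. Both higher genes held TATAAA, *Ogn* in 2 matches that overlap on opposite strands and *Murc* in 1, and both lower genes held none. Of 32851 promoters in the table, 12.4% held TATAAA in the same window, 32.7% GGGCGG, and 6.75% TGANTCA. The GC content was 55.6% and 53.6% for *Prelp* and *Cx3cr1* and 42.0% and 48.8% for *Ogn* and *Murc*, with a median of 52.4% over the table. A match is a description of the letters and not of a bound site.

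The NSG tumors, which had no part in choosing the 23 genes, gave a second measure of each. Of the 12 lower genes, 11 were also lower in NSG ATRXKD tumors, and of the 11 higher genes, 10 were also higher. *Jchain* counts among the lower ones, although its level in NSG tumors, given below, was too low for its sign to carry weight. Over all genes tested, 55.3% had the same sign in both hosts. The hosts share the 2 transduced cell populations but no tumor. In the fit of all groups, 343 genes fell (2.33%) and 435 rose (2.96%) in NSG tumors at an adjusted p under 0.05, and 3 of the 12 lower and 5 of the 11 higher genes were among them, in the direction seen in Balb/c tumors.

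The 3 were *A330076H08Rik*, with a log2 fold change in NSG tumors of −1.96 (limma adjusted p = 0.000761), *Plscr4*, with −0.57 (limma adjusted p = 0.016), and *Crct1*, with −1.36 (limma adjusted p = 0.0407). *A330076H08Rik* was at 1.95 to 5.30 FPKM in NSG ATRXCT tumors and at 0.0634 to 0.306 FPKM in NSG ATRXKD tumors, so its groups did not overlap there either. The 5 higher genes were *Klhl40* with 1.25 (limma adjusted p = 0.00667), *Murc* with 1.23 (limma adjusted p = 0.00684), *Tnfrsf11b* with 1.21 (limma adjusted p = 0.00684), *Cldn5* with 0.80 (limma adjusted p = 0.0314), and *Slc38a4* with 0.67 (limma adjusted p = 0.0448). For *Murc*, the NSG tumors were at 1.77 to 3.94 FPKM (ATRXCT) and 6.55 to 8.53 FPKM (ATRXKD), and for *Tnfrsf11b* at 0.625 to 2.06 and 3.56 to 5.06 FPKM, without overlap for either.

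Other genes had smaller differences in NSG tumors. *Prelp* had a log2 fold change there of −0.28 (limma adjusted p = 0.814), *Ptgfrn* of 0.14 (limma adjusted p = 0.84), and *Lpl* of −0.14 (limma adjusted p = 0.838). *Jchain* was at or under 0.0716 FPKM in all NSG tumors, a host without B cells. *Cx3cr1* had −1.01 (limma adjusted p = 0.165) in NSG tumors and *Ogn* 1.09 (limma adjusted p = 0.0725), neither past the threshold. A test of the difference between hosts called 0 of the 14701 genes at an adjusted p under 0.05 in limma, with 1509 genes (10.3%) at an unadjusted p under 0.05.

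**Figure D3:**
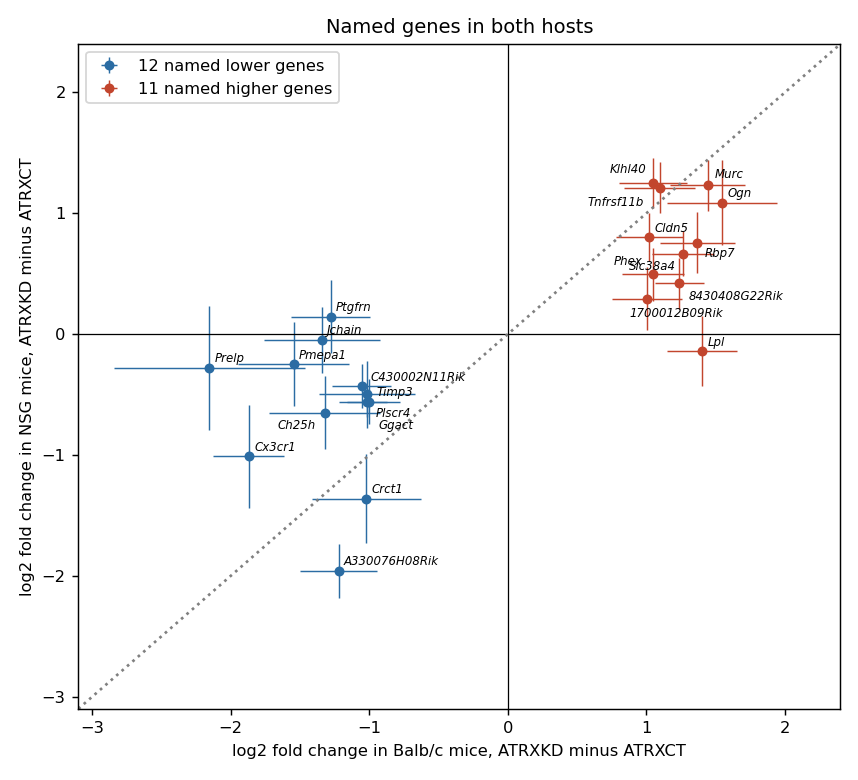
Log2 fold change (ATRXKD minus ATRXCT) of the 23 genes in Balb/c mice (horizontal axis) and NSG mice (vertical axis), with standard errors from limma and a dotted line of equal values. All but *Ptgfrn* and *Lpl* have the same sign in both hosts, and *A330076H08Rik* is farther from 0 in NSG mice. The level of *Jchain* in NSG mice is too low for its sign to carry weight.

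Lists of genes for cell types, tumor and bone functions, and cell programs were then described by counts and medians, to be read beside the whole table, in which 2.42% of genes were lower and 1.72% higher at p under 0.05. The largest shifts after that of the mast cell list (median −0.90) were those of fat, vessels, muscle, and skin. In NSG tumors the mast cell median had the other sign, 0.18, with 17 genes higher and 1 lower. The keratinocyte median was 0.18 there as well, with 11 genes higher and 2 lower, and the skeletal muscle median was −0.10. All 13 adipocyte genes tested were higher, with a median of 0.64, and 3 of them, *Lpl*, *Fabp4*, and *Pparg*, were at p under 0.05. *Fabp4*, the fatty acid carrier of fat cells and capillaries, was at 75.2, 84.2, 87.4 and 77.1 FPKM in the ATRXCT tumors and 194, 211, 139 and 121 FPKM in the ATRXKD tumors. *Pparg*, the regulator of fat cell identity, was at 1.9, 2.56, 1.82 and 2.13 FPKM in the ATRXCT tumors and 6.41, 4.54, 3.12 and 5.01 FPKM in the ATRXKD tumors. Neither gene's groups overlapped, with log2 fold changes of 0.99 (SE 0.19, limma adjusted p = 0.351) and 0.87 (SE 0.19, limma adjusted p = 0.413).

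The mean log2 (FPKM + 1) of the adipocyte list was 1.91, 2.17, 1.81 and 1.92 in the ATRXCT tumors and 2.92, 2.92, 2.13 and 2.12 in the ATRXKD tumors. The ATRXKD tumors of mice 56 and 58 were above all ATRXCT tumors, whereas those of mice 59 and 60 were inside the ATRXCT range. The median of the list was 0.35 to 0.86 when single tumors were left out. *Adipoq*, the defining gene of mature fat cells, had means of 0.44 and 1.54 FPKM (log2 fold change 0.64, adjusted p = 0.999 in limma). The median of the list in NSG tumors was 0.55.

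Of 19 endothelial genes, 16 were higher, with a median of 0.46 (0.61 in NSG tumors, and 0.19 to 0.60 in Balb/c tumors when single tumors were left out). The mean of the list was 2.799, 3.033, 2.4996 and 2.940 in the ATRXCT tumors and 3.713, 3.157, 2.721 and 3.030 in the ATRXKD tumors. The groups thus overlapped, with the ATRXKD tumors of mice 59 and 60 inside the ATRXCT range. *Cldn5* above, *Egfl7*, *Emcn*, and *Esam* were at p under 0.05 without overlap. *Egfl7*, a factor that endothelial cells secrete, was at 13.02, 12.9, 13.5 and 13.8 FPKM in the ATRXCT tumors and 28.9, 28.98, 19.1 and 15.5 FPKM in the ATRXKD tumors. *Emcn*, a sialoglycoprotein of veins and capillaries, was at 4.31, 5.001, 4.24 and 4.11 FPKM in the ATRXCT tumors and 11.97, 7.63, 5.82 and 5.84 FPKM in the ATRXKD tumors. *Esam*, an adhesion molecule of endothelial junctions, was at 9.14, 9.67, 7.06 and 7.19 FPKM in the ATRXCT tumors and 16.2, 12.6, 10.2 and 10.7 FPKM in the ATRXKD tumors. For these 3 genes the ATRXKD tumor of mouse 56 was at or near the top, and the log2 fold changes were 0.71, 0.65, and 0.52.

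Of the 3 endothelial genes that were lower, 1 was at p under 0.05. *Thbd*, thrombomodulin, which turns thrombin to the activation of protein C, was at 31.7, 28.7, 33.6 and 30.2 FPKM in the ATRXCT tumors and 18.1, 16.8, 16.3 and 12.5 FPKM in the ATRXKD tumors. The groups were far apart relative to their spread, with a log2 fold change of −0.93 (SE 0.14, limma adjusted p = 0.189). It was −0.28 (limma adjusted p = 0.137) in NSG tumors. From the list of coagulation and vascular tone, *Edn1*, the vasoconstrictor endothelin, was also lower without overlap, at 2.81, 3.42, 7.13 and 4.17 against 1.08, 2.74, 2.16 and 2.05 FPKM in the ATRXCT and ATRXKD tumors. Among pericyte and smooth muscle genes, with a median of 0.03, the potassium channel gene *Kcnj8* was higher without overlap, at 2.11, 2.43, 3.28 and 3.41 against 5.46, 6.08, 4.64 and 3.45 FPKM.

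Muscle and skin lists had negative medians, with 1 gene of each at p under 0.05. None of the 17 skeletal muscle genes was higher in ATRXKD tumors (median −0.54), but the list mean was 1.98, 2.12, 1.302 and 0.762 in the ATRXCT tumors and 0.357, 1.42, 1.605 and 0.739 in the ATRXKD tumors, so the groups overlapped, and the median was −0.98 to −0.17 when single tumors were left out. Only the myosin gene *Myh1* was at p under 0.05 in limma, at 0.827 FPKM or less in every tumor. None of the 13 keratinocyte genes tested was higher either (median −0.47), and the epithelial cadherin gene *Cdh1* was at 1.61, 1.25, 1.29 and 2.61 against 1.01, 1.04, 0.752 and 0.843 FPKM without overlap. The keratinocyte median was −0.67 to 0.05 when single tumors were left out, and the groups overlapped in the mean of the list. Without the tumors of mice 45 and 60, in which these genes stood out, the keratinocyte median was −0.03 and the skeletal muscle median −0.82.

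Immune lists other than mast cells moved little. The medians were −0.02 for 15 T cell genes, 0.17 for 15 NK and cytotoxic genes, −0.11 for 20 macrophage and monocyte genes, 0.06 for 14 dendritic cell genes, and 0.16 for 14 neutrophil genes. In the T, NK, macrophage, and dendritic cell lists, 0 genes were at p under 0.05 in limma. Of the neutrophil genes, 12 were higher, and the chemokine receptor gene *Cxcr2* was at 3.03, 1.74, 2.301 and 1.93 against 3.83, 4.44, 2.78 and 2.495 FPKM in the ATRXCT and ATRXKD tumors, with overlap. The groups of each of these lists overlapped in their mean level.

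**Figure D4:**
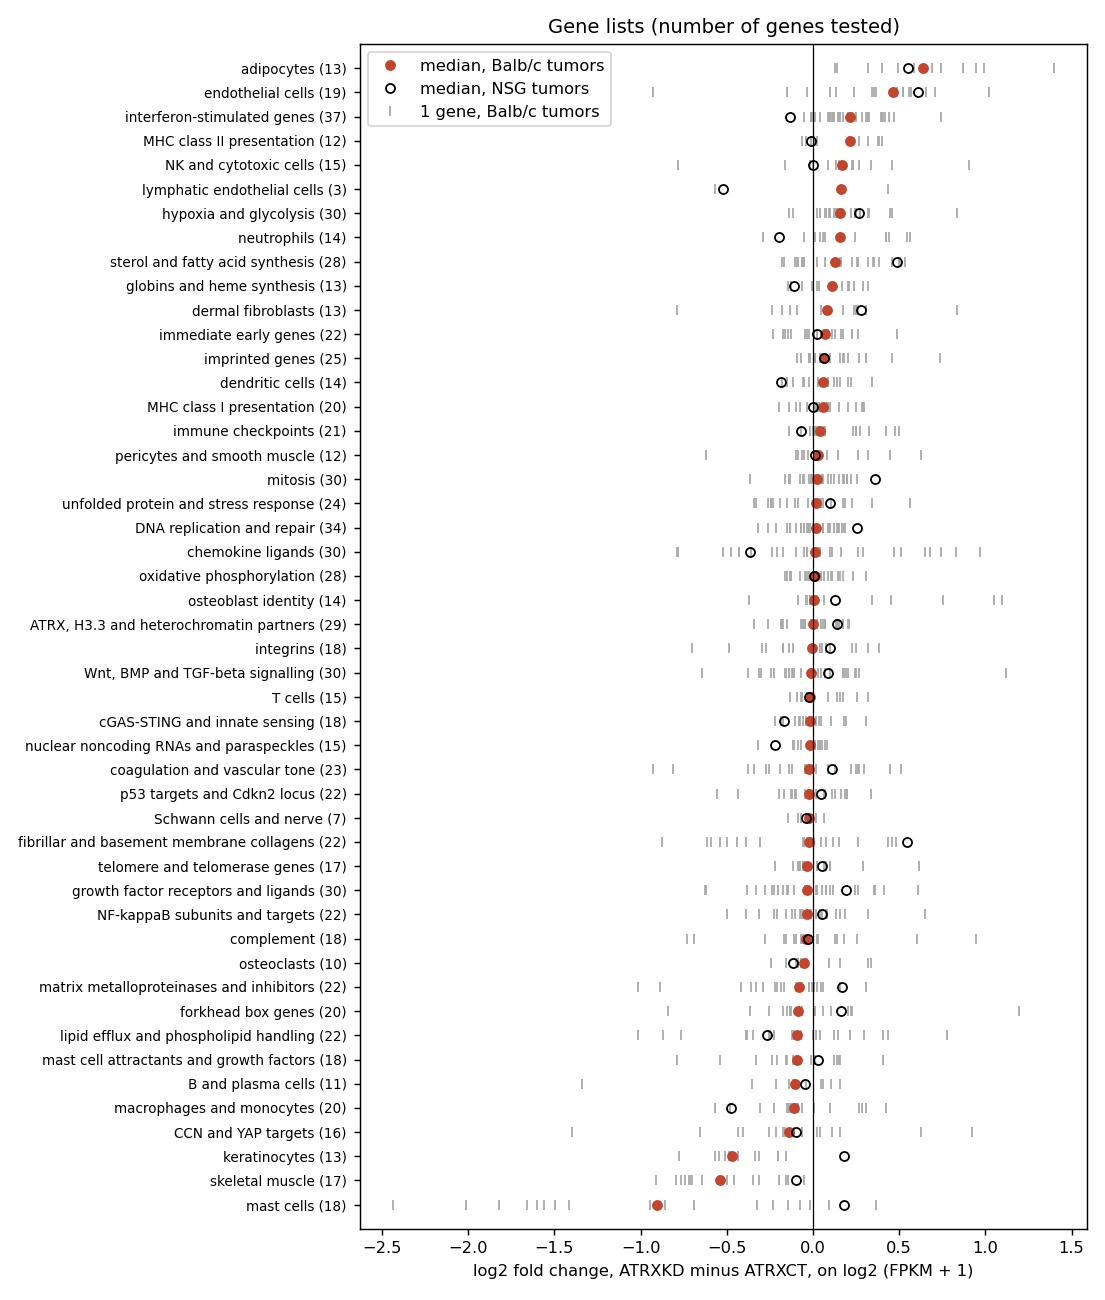
Log2 fold changes (ATRXKD minus ATRXCT) of 48 gene lists, ordered by their median in Balb/c tumors (red); grey ticks are single genes and open circles the medians in NSG tumors. Adipocyte and endothelial lists are highest in both hosts, the mast cell list is lowest in Balb/c mice at −0.90, and the lists other than muscle and keratinocytes lie between −0.14 and 0.22.

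Chemokine genes split in both directions. Of 30 tested, 4 were lower and 3 higher at p under 0.05 (median 0.01). *Cxcl12*, the stromal ligand of CXCR4, was at 154, 194, 181 and 152 FPKM in the ATRXCT tumors and 94.6, 97.9, 100.1 and 97.2 FPKM in the ATRXKD tumors. The ATRXKD tumors lay close together and far below the ATRXCT tumors, a log2 fold change of −0.79 (SE 0.13, limma adjusted p = 0.262). In NSG tumors its log2 fold change was −0.19 (limma adjusted p = 0.541). *Cxcl16* was lower without overlap as well, at 37.4, 36.5, 49.8 and 36.2 against 29.6, 30.6, 29.4 and 27.3 FPKM, and in NSG tumors it fell (log2 fold change −0.61 (limma adjusted p = 0.0464)).

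*Cxcl5*, a neutrophil attractant, was higher, at 36.99, 46.3, 63.7 and 34.3 FPKM in the ATRXCT tumors and 111, 81.99, 81.5 and 77.9 FPKM in the ATRXKD tumors, a log2 fold change of 0.97 (SE 0.21, limma adjusted p = 0.413). *Ccl24*, an eosinophil attractant of macrophages, was at 15.97, 14.2, 13.3 and 8.98 FPKM in the ATRXCT tumors and 19.4, 18.2, 24.7 and 23.02 FPKM in the ATRXKD tumors, a log2 fold change of 0.68 (SE 0.18, limma adjusted p = 0.626). *Ccl24* had the opposite sign in NSG tumors, where it fell (−1.09 (limma adjusted p = 0.0363)). Neither *Cxcl5* nor *Ccl24* overlapped between the Balb/c groups. *Il10*, a cytokine listed among mast cell growth factors, was at 0.637, 0.543, 0.9602 and 0.326 against 0.872, 1.16, 1.34 and 1.15 FPKM, with overlap.

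*Mmp2*, gelatinase A, was at 5.42, 6.85, 4.22 and 7.29 FPKM in the ATRXCT tumors and 4.11, 2.46, 1.67 and 2.95 FPKM in the ATRXKD tumors, a log2 fold change of −0.89 (SE 0.23, limma adjusted p = 0.565). *Itgav*, the alpha-V integrin that activates latent TGF-beta, was at 72.5, 79.5, 52.1 and 78.4 FPKM in the ATRXCT tumors and 51.8, 37.3, 35.6 and 47.5 FPKM in the ATRXKD tumors, a log2 fold change of −0.70 (SE 0.18, limma adjusted p = 0.565). *Itgb1*, the common beta-1 integrin, had narrow groups, at 188, 199, 196 and 201 against 160.0, 167, 157 and 165 FPKM in the ATRXCT and ATRXKD tumors, without overlap (log2 fold change −0.27). *Tgfbr1*, the type I receptor of TGF-beta, was at 26.2, 25.4, 25.98 and 25.4 FPKM in the ATRXCT tumors and 14.1, 16.8, 14.5 and 19.6 FPKM in the ATRXKD tumors. The ATRXCT tumors lay close together and all ATRXKD tumors were lower, a log2 fold change of −0.64 (SE 0.13, limma adjusted p = 0.388). In NSG tumors it was −0.41 (limma adjusted p = 0.114).

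Their lists gave these counts. Of 22 metalloproteinase and inhibitor genes, 3 were lower and 0 higher at p under 0.05 (median −0.08). Of 18 integrins the counts were 2 and 0 (median −0.01), and of 22 collagens they were 3 and 1 (median −0.02). Of 30 genes of Wnt, BMP, and TGF-beta signaling, 1 was lower, *Tgfbr1*, and 1 higher (median −0.01). *Col14a1* and *Col7a1* were lower and the basement membrane chain *Col4a5* higher, each without overlap and at or under 3.20 FPKM. In NSG tumors the collagen list had a median of 0.54.

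Targets of the YAP pathway and CCN genes differed among themselves. *Lats2*, the kinase that restrains YAP, was at 41.6, 36.04, 32.5 and 38 FPKM in the ATRXCT tumors and 19.8, 25.9, 23.03 and 24.1 FPKM in the ATRXKD tumors, a log2 fold change of −0.65 (SE 0.13, limma adjusted p = 0.388), and it fell in NSG tumors (−0.63 (limma adjusted p = 0.0239)). *Wisp2*, a CCN family gene, was at 128, 71, 107 and 120.0 FPKM in the ATRXCT tumors and 19.1, 92.6, 43.9 and 28.7 FPKM in the ATRXKD tumors. The ATRXKD tumor of mouse 58 lay inside the ATRXCT range and the others far below, and in NSG tumors *Wisp2* fell (−1.25 (limma adjusted p = 0.0314)). *Nov*, another CCN family gene, was at 6.46, 6.28, 4.55 and 4.75 FPKM in the ATRXCT tumors and 17.5, 9.28, 17.3 and 5.41 FPKM in the ATRXKD tumors. It was higher in 2 ATRXKD tumors, those of mice 56 and 59, than in the others, and it rose in NSG tumors (1.35 (limma adjusted p = 0.00684)).

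Genes of phospholipid handling included *Plpp3*, which degrades lysophosphatidic acid outside the cell, at 107, 98.4, 95.3 and 93.6 FPKM in the ATRXCT tumors and 54.3, 62.9, 57.6 and 41.2 FPKM in the ATRXKD tumors, a log2 fold change of −0.87 (SE 0.15, limma adjusted p = 0.286). *Lpar1*, a receptor of that lipid, was at 11.1, 10.5, 13.9 and 12.4 against 13.1, 16.4, 15.1 and 20.6 FPKM in the ATRXCT and ATRXKD tumors, with overlap. Among forkhead genes, *Foxf2* was at 5.41, 6.47, 6.18 and 6.32 FPKM in the ATRXCT tumors and 3.32, 3.09, 2.48 and 2.97 FPKM in the ATRXKD tumors, a log2 fold change of −0.84 (SE 0.13, limma adjusted p = 0.245). *Foxc2* was at 0.267, 1.2, 0.187 and 0.0659 against 4.03, 1.77, 0.855 and 2.75 FPKM, and the ATRXCT tumor of mouse 43 overlapped the ATRXKD range. In NSG tumors *Foxf2* was at 0.21 and *Plpp3* at 0.06 on the log2 scale, neither past the adjusted p. *Masp1*, a protease of the lectin pathway of complement, was lower without overlap, at 11.04, 12.3, 8.901 and 11.6 against 5.19, 6.59, 7.01 and 6.82 FPKM, a log2 fold change of −0.69 (SE 0.15, limma adjusted p = 0.413).

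Of 30 hypoxia and glycolysis genes, 28 were higher, although only *Car9* and *Egln3* were at p under 0.05 (2 of 30, beside 1.72% of all genes). The list mean was 5.75, 5.66, 5.801 and 5.698 in the ATRXCT tumors and 5.85, 5.91, 5.92 and 5.97 in the ATRXKD tumors. The groups did not overlap, but the difference was small, with a median log2 fold change of 0.16 and of 0.27 in NSG tumors. *Car9*, carbonic anhydrase 9, was at 15.01, 8.53, 22.9 and 20.2 against 20.9, 38.8, 42.9 and 19.5 FPKM in the ATRXCT and ATRXKD tumors, with overlap. *Egln3*, a prolyl hydroxylase that hypoxia induces, was at 28.7, 33.5, 24.4 and 34.7 against 40.03, 35.2, 35.7 and 40.9 FPKM without overlap.

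Of 37 interferon-stimulated genes, 33 were higher (median 0.22), and *Iigp1* and *Gbp2* were at p under 0.05. Without the tumors of mice 45 and 60 the median was −0.01, and it was −0.13 in NSG tumors. Of 28 genes of sterol and fatty acid synthesis, 17 were higher (median 0.13, and −0.03 to 0.25 when single tumors were left out). *Sqle*, squalene epoxidase, was at 24.8, 31.97, 18.4 and 39.2 against 37.2, 42.3, 45.3 and 37.3 FPKM in the ATRXCT and ATRXKD tumors, with overlap. It rose in NSG tumors, where its log2 fold change was 0.81 (limma adjusted p = 0.008) and where all 28 genes of the list were higher.

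Genes that work with ATRX gave no such values. Of 29 genes of ATRX, H3.3, and heterochromatin, 0 were at p under 0.05 in limma, with a median of 0.00 and values from −0.34 (*Atrx* itself) to 0.21. The counts were also 0 for 17 telomere genes (median −0.03), 34 genes of DNA replication and repair (median 0.02), 18 genes of cGAS-STING sensing (median −0.02), and 22 p53 targets (median −0.02). Of 30 mitosis genes, the kinase gene *Ttk* was lower without overlap, at 14.02, 14.8, 12.4 and 18.02 against 11.4, 11.4, 9.74 and 12.4 FPKM. Among imprinted genes, *Mest* was higher without overlap, at 7.65, 10.2, 6.03 and 9.54 against 23.1, 15, 11.8 and 10.2 FPKM, and it rose in NSG tumors (0.95 (limma adjusted p = 0.0408)).

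Families defined by gene names gave medians between −0.04 and 0.11 for 7 of 10 families. The median was −0.04 for 204 solute carriers (9 lower and 2 higher at p under 0.05), 0.03 for 310 zinc finger genes (3 and 5), and 0.07 for 68 replication-dependent histones (0 and 1). Of 86 cytosolic ribosomal protein genes, 84.9% were higher with 0 at p under 0.05 (median 0.11, and −0.03 to 0.30 when single tumors were left out). The medians were 0.10 for 76 mitochondrial ribosomal proteins, 0.07 for 38 proteasome subunits, and 0.02 for 49 channels.

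Of 40 clustered protocadherins, adhesion genes of the cadherin superfamily, 37 were lower, with 6 lower and 0 higher at p under 0.05 and a median of −0.13. *Pcdhb14* was the one of smallest p, at 1.93, 2.2, 1.77 and 2.32 against 1.63, 1.104, 1.19 and 1.15 FPKM in the ATRXCT and ATRXKD tumors, without overlap. The family's mean level overlapped between groups, and its median in NSG tumors was 0.04. Of 8 Mas-related receptors, 6 were lower, with 4 lower and 1 higher at p under 0.05 (median −0.41). Their mean level did not overlap, but only narrowly, with 0.349 in the lowest ATRXCT tumor and 0.345 in the highest ATRXKD tumor. *Mrgprb1* and *Mrgprb2* of this family are also in the mast cell list. *Mrgprb2*, a receptor known from mast cells, was at 3.63, 2.38, 1.12 and 1.32 against 0.421, 0.551, 0.769 and 0.426 FPKM, whereas *Mrgprf* was higher, at 3.31, 2.82, 1.45 and 2.62 against 5.74, 9.31, 7.29 and 2.12 FPKM, with overlap. The median of the Mas-related receptors in NSG tumors was 0.04. Of 19 keratins, 13 were lower (median −0.14, and −0.20 to 0.43 when single tumors were left out).

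Where the genes lie was examined last, after their values had been seen, over the 12159 genes that averaged 1 FPKM or more. For each tumor, the median deviation of a segment's genes from their mean over the 8 tumors was taken, less the same median over all these genes. In 211 windows of 10 Mb with at least 20 genes, the groups did not overlap for 8 lower (3.79%) and 2 higher windows (0.948%), 4.74% in all. Windows on chromosomes 9 and 2 were the 6 lowest, and 2 neighbors on chromosome 10 were among the 10 lowest. Between these ranked a window of chromosome X, from 70 to 80 Mb (median −0.17, with overlap, and −0.29 in NSG tumors, without overlap). The segments of chromosomes 9, 2, and 10 below were joined from these lowest windows, so their separation in Balb/c tumors was selected for. Within that of chromosome 2, the groups overlapped from 80 to 90 Mb, where 37.5% of genes were higher.

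On chromosome 9 between 80 and 100 Mb (mm10), 8.45% of 71 genes were higher in ATRXKD tumors, with a median log2 fold change of −0.27. Of these, 19 were lower and 0 higher at p under 0.05. The segment's deviation was 0.0385, 0.0430, 0.259 and 0.284 in the ATRXCT tumors and −0.127, −0.139, −0.187 and −0.190 in the ATRXKD tumors. The 19 genes included *Plscr4*, *C430002N11Rik*, and *Ttk* above and *Tbx18*, a T-box factor of mesenchyme (means of 3.78 and 1.99 FPKM). *Tpbg*, a membrane glycoprotein (22.5 and 13.5 FPKM), and the cation channel gene *Trpc1* (6.66 and 3.57 FPKM) were among them too.

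On chromosome 2 between 60 and 100 Mb, the median of 138 genes was −0.20, and 19 were lower and 0 higher at p under 0.05, including *Itgav*, the Rac regulator *Chn1*, and the tetraspanin *Cd82*. The segment's deviation was 0.0204 to 0.156 in ATRXCT tumors and −0.168 to −0.0320 in ATRXKD tumors. On chromosome 10 between 80 and 100 Mb, the median of 153 genes was −0.15, with 14 lower genes, *Timp3* among them, and 1 higher, *Spic*. There the deviation was 0.0382 to 0.126 in ATRXCT tumors and −0.219 to −0.0108 in ATRXKD tumors. In NSG tumors the medians of these segments were −0.10 on chromosome 9, −0.08 on chromosome 2, and −0.07 on chromosome 10. Of these joined segments, only that on chromosome 2 had NSG groups without overlap. Among their single windows, the NSG groups were apart from 80 to 90 Mb on chromosome 9 (median −0.13). They were also apart from 60 to 70 Mb on chromosome 2 (−0.16) and from 90 to 100 Mb on chromosome 10 (−0.04), and overlapped in the others.

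Over whole chromosomes, chromosome 15 had the highest median. Of its 494 genes, 74.5% were higher (median 0.11), and 23 were higher and 4 lower at p under 0.05. *Slc38a4*, *Tnfrsf11b*, *Gpihbp1*, *Nov*, *Wnt10b*, and *Sqle* were among the 23. The deviation was −0.119 to −0.0235 in ATRXCT tumors and −0.0374 to 0.129 in ATRXKD tumors, where the tumor of mouse 60 was the lowest. In NSG tumors the median was 0.12, with 71.1% of genes higher and no overlap between groups. Some other chromosomes had the same sign in both hosts and some did not. The Balb/c and NSG medians were −0.07 and −0.04 on chromosome 9, −0.09 and −0.05 on chromosome 19, and 0.06 and 0.05 on chromosome 3. The groups overlapped for each of these in both hosts. On chromosome X, which carries *Atrx*, 45.6% of 366 genes were higher in Balb/c ATRXKD tumors (median −0.02, with overlap). In NSG tumors 27.6% were higher there (median −0.21, without overlap). Chromosomes 8 and 18 had opposite signs. On chromosome 8, 27.3% of 652 genes were higher in Balb/c ATRXKD tumors (median −0.08, 24 lower and 7 higher at p under 0.05, with overlap), whereas the NSG median was 0.05, without overlap. On chromosome 18, 32.9% of 319 genes were higher (median −0.06, with overlap) and 69.0% in NSG tumors (median 0.14, without overlap). Of the 10 lowest windows all 10 were also lower in NSG tumors, and of the 10 highest 8 were higher, while 59.2% of all windows had the same sign in both hosts. DNA copy number was not measured in these tumors, and its part was not tested.

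**Figure D5:**
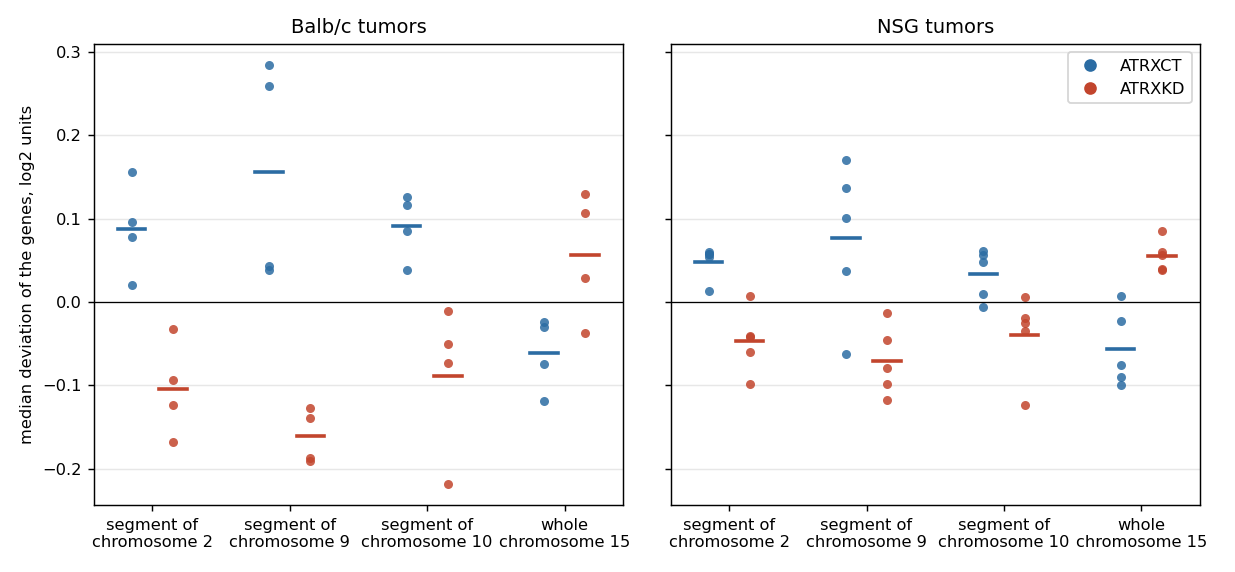
Median deviation of the genes of a chromosome segment in each tumor (log2 units, relative to all genes of that tumor), for segments of chromosomes 2, 9, and 10 and for chromosome 15, in Balb/c (left) and NSG mice (right); bars are group means. In Balb/c mice all ATRXKD tumors are below all ATRXCT tumors in the first 3 segments, which were joined from the lowest windows of these same tumors. On chromosome 15 only the ATRXKD tumor of mouse 60 is inside the ATRXCT range.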

How the data were processed

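Total RNA of K7M2 tumors was ribo-depleted and made into stranded libraries. The authors sequenced paired reads of 75 bp, aligned them to mm10 with STAR 2.6.0c, discarded PCR duplicates and reads of quality under 20, and used Cufflinks 2.2.1 to quantify the genes of RefSeq. The deposited values are log2 (FPKM + 1), and an annotation deposited by the authors gave coordinates and transcript lengths. Base 2 was settled from the total of FPKM times length, which came to 1.10 to 1.12 times its known value, against 8.45 to 10.6 times with the natural log. Whole reads were not recovered (37.8% to 41.7% of low values within 0.1 of a whole fragment), so no count test was run. Chance gives 20% at a depth fixed in advance, but the depth was chosen to make this share largest, with fragments assumed to be 160 nt. The authors used DESeq for their own comparison.

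The 92 spike-ins were left out. Groups were compared by limma 3.58.1 (a linear model per gene, with a mean-dependent prior for the variance) under R 4.3.3, with a pseudocount of 1, a minimum mean of 0.1 FPKM and Benjamini-Hochberg adjustment over 14701 genes. The interaction of host and knock-down, and the NSG values, came from 1 fit of all 4 groups. *Atrx* was also compared by an exact permutation test over 70 arrangements. Python 3.11.15 was used for the tables and drawings.

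The genes and the 48 lists and 10 name-based families described here were chosen with earlier results of these data known. A family of immunoglobulin and T cell receptor segments matched no such gene and was dropped. Genes outside mast cells are named when among the 12 of largest fold change each way at unadjusted p under 0.05, 2-fold and without overlap, when called with library weights, or when among the members of a list at unadjusted p under 0.05 or its 3 of smallest p. The chromosome windows and the class of libraries along transcript length were chosen after seeing the data. So were *Runx2*, *Col1a1*, *Spp1*, *Sp7*, *Ibsp*, *Bglap*, *Alpl*, *Cd3e*, *Ncr1*, *Adipoq*, *Gpihbp1*, *Scarna8*, and *Mir8094*. The same holds for *Tbx18*, *Tpbg*, *Trpc1*, *Chn1*, *Cd82*, and *Spic* in the chromosome segments, and for the genes given under other observations. Alternatives were a pseudocount of 0.1, median-ratio and quantile scaling, other filters, weights per library together with a robust prior, no fold threshold, all groups in 1 fit, removal of the trend with transcript length, the fit without the tumors of mice 45 and 60, and leaving out each tumor. One result is not reported here.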

Additional observations from a re-analysis of the deposited data

Results flagged for a closer look

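Within groups of 4 tumors, a single tumor far from the other 3 was looked for among the named genes and the list means, in 184 groups. It was found in 8, where chance gives about 1 in 20 groups, or 9.2. On the log2 (FPKM + 1) scale, *Jchain* was at 0.56 in the ATRXKD tumor of mouse 59 (1.54 to 1.71 in the others), *C430002N11Rik* at 1.16 in the ATRXKD tumor of mouse 58 (0.23 to 0.38), and *Crct1* at 0 in the ATRXKD tumor of mouse 56 (1.22 to 1.31). The mean of the keratinocyte list was 2.53 in the ATRXCT tumor of mouse 45 (0.31 to 0.33) and 0.99 in the ATRXKD tumor of mouse 60 (0.26 to 0.34), and that of the keratins was 0.79 in the ATRXCT tumor of mouse 45 (0.18 to 0.24). In the ATRXKD tumor of mouse 56, the macrophage and monocyte mean was 5.82 (6.34 to 6.45) and the imprinted gene mean 1.82 (up to 1.63 in the others).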

How the results depend on the processing

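*Mcpt2* was the only gene called in the fit given above. The number of lower genes called was 0 with a minimum of 1 FPKM, 0 with no filter, 0 with the length trend removed, 11 with library weights, 6 with all groups in 1 fit, and 0 to 2 when each tumor was left out; *Mcpt2* lost its call without the tumor of mouse 41, 44, 56, 58, 59 or 60 (adjusted p up to 0.153 in limma). The number of higher genes called was 4 with library weights, 3 with all groups in 1 fit, 1 without the tumors of mice 45 and 60, and 0 to 1 when each tumor was left out. At unadjusted p and 2-fold, the lower genes were 102 with a pseudocount of 0.1, 356 with no fold threshold, and 24 to 36 without single tumors; the higher genes were 60 with a pseudocount of 0.1, 253 with no fold threshold, 46 with library weights, 38 without the tumors of mice 45 and 60, and 17 to 42 without single tumors (42 without that of mouse 60). The log2 fold change of *Atrx* was −0.57 to −0.13 without single tumors. Of 4461 values of 250 named genes under alternatives, 25 gained and 9 lost a call, and 29 values of 7 genes, all with an unadjusted p above 0.05, changed direction. Without the tumors of mice 45 and 60 together, these were *Runx2* with 0.16, *Col1a1* with 0.24, *Alpl* with −0.0639, *Cd3e* with −0.0702, *Ncr1* with 0.19 and *Mertk* with −0.0545. With library weights they were *Alpl* with −0.00098, *Cd3e* with −0.24, *Ncr1* with 0.64 and *Mertk* with −0.00747, and with the length trend removed *Runx2* with 0.0170 and *Col1a1* with 0.0194. Without single tumors, *Runx2* ranged from −0.30 to 0.17, *Col1a1* from −0.51 to 0.16, *Alpl* from −0.0170 to 0.14, *Cd3e* from −0.15 to 0.33, *Ncr1* from −0.40 to 0.36 and *Flt4* from −0.0347 to 0.29. Of the 754 list medians 8 moved by more than the spread. No paired analysis was possible because the mouse numbers of the groups differ. With 4 tumors a group, an exact test cannot go below p = 0.0286, and depth limits genes near 0.1 FPKM.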

Other observations

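Several other genes at unadjusted p under 0.05 and 2-fold had groups that overlapped by a single tumor, and they are named after their values were seen. *Hopx*, a small homeodomain protein, was at 22.03, 15.1, 25.03 and 9.697 FPKM in the ATRXCT tumors and 56.4, 61.1, 59.6 and 24.1 FPKM in the ATRXKD tumors, with only the tumor of mouse 60 inside the ATRXCT range. *Kdelr3*, a receptor that returns proteins to the endoplasmic reticulum, and *Bik*, a pro-death BCL2 family gene, both on chromosome 15, showed the same arrangement, at 8.56, 6.95, 8.25 and 6.27 against 18.03, 27.6, 20.9 and 8.46 FPKM and 6.19, 6.02, 5.05 and 3.33 against 13.7, 16.9, 13.5 and 5.76 FPKM in the ATRXCT and ATRXKD tumors. *Ndufa4l2*, a mitochondrial protein induced by hypoxia, was at 4.38, 5.503, 2.797 and 5.06 against 19.2, 21.9, 10.1 and 2.997 FPKM. *Has1*, a hyaluronan synthase, was at 1.901, 2.61, 0.855 and 0.893 against 4.597, 7.18, 3.104 and 2.42 FPKM, whereas *Has2* had means of 2.28 and 1.21 FPKM, so the genes of this family had opposite signs. *Thrsp*, a lipogenic regulator of fat, was at 0.656, 0.818, 0.333 and 0.1501 against 5.04, 4.001, 1.19 and 0.258 FPKM. *F2rl1*, the receptor that mast cell tryptase can cleave, was at 3.71, 6.59, 2.28 and 8.19 against 0.419, 2.94, 1.85 and 1.77 FPKM, with a log2 fold change of −1.15 (SE 0.38, limma adjusted p = 0.928) and the tumor of mouse 58 inside the ATRXCT range.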
